A study of Mus musculus with 6 samples.

Results

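Cenpf and 9 other genes of dividing cells were examined in RNA sequencing of mouse hearts: the kinetochore motor Cenpe, the proliferation marker Mki67, the topoisomerase Top2a, the cyclins Ccnb1 and Ccna2, the kinase Cdk1, the kinase Aurkb, the spindle motor Kif11 and the replication helicase subunit Mcm2. These 10 genes were taken by symbol from 48005 gene identifiers in a deposited table of counts per exon bin. Cenpf was selected on its log2 difference between knock-in and wild-type hearts in this same contrast, so that difference is given as a description with no test. The question was whether the 9 other genes, which are low in heart, differ along with it.

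The 3 knock-in hearts came from C57BL/6 mice carrying a conditional knock-in Txnip allele in which the PPXY motifs were changed to AAXA. The 3 wild-type hearts came from C57BL/6 mice labelled Txnip flox. All 6 animals are labelled MerCreMer with 4-hydroxytamoxifen, so both groups carried the inducible Cre recombinase and received the drug that switches it on. Txnip is an alpha-arrestin that limits glucose uptake, and PPXY motifs are docking sites for WW domains of ubiquitin ligases. The promoter that drives MerCreMer, and the age and sex of the mice, were not used here. According to the series text the wild-type hearts also served in another series, and whether both groups were prepared together is not given in the sources used here.

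Cenpf is a very large coiled-coil protein that accumulates before mitosis, sits on the nuclear envelope and outer kinetochore, binds microtubules and dynein regulators, and is destroyed as cells divide. Mitotic genes of this kind are switched off in most cells of the adult heart, because adult cardiomyocytes rarely divide. Cenpf also has roles outside mitosis: in mouse, where it is also called LEK1, its loss from cardiomyocytes gives dilated cardiomyopathy.

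Cenpf counts did not begin at the first annotated exon in any of the 6 libraries. The annotated full-length transcript Cenpf-204 has 18 exons and 11130 bases, and lies at chr1:189640606-189688086 on the minus strand of GRCm38 (ENSMUSG00000026605). Exons 1 to 6 held 0 counts in every library, while exon 7 held 8, 8 and 15 counts in the knock-in libraries and 1, 0 and 2 counts in the wild-type libraries. The exons on either side of that boundary are printed 5′ to 3′, from GENCODE transcripts of GRCm38, because the covered part of the gene starts between them; capitals mark each ATG in frame with the annotated coding sequence.

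Cenpf exon 6: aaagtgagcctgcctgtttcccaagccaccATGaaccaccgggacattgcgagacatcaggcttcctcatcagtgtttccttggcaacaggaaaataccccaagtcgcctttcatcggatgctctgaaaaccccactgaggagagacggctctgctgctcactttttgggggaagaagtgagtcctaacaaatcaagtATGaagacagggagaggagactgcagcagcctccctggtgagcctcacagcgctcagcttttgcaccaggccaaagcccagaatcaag

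Cenpf exon 7: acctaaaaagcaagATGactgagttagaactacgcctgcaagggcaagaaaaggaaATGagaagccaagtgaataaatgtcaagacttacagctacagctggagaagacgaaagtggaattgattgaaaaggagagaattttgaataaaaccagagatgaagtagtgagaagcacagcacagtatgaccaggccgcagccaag

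Exon 6 lies at chr1:189680221-189680506 and has 286 bases. Exon 7 lies at chr1:189678939-189679141 and has 203 bases. Of 2997 codons of the annotated coding sequence, 282 (9.41%) begin before exon 7. The in-frame ATG triplets of exon 7 are codons 287 and 301, and those of exon 6 are codons 197 and 253, counted from the annotated start codon. Whether any of them starts translation was not measured.

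Cenpf was about 2.7 times as abundant in knock-in hearts. Its counts, summed over exon bins, were 398, 547 and 571 in the knock-in libraries of replicates 1 to 3, against 162, 204 and 171 in the wild-type libraries. Every knock-in library was above every wild-type library. On the CPM scale (counts per 1000000 of the scaled library total), it averaged 15.5 ± 2.2 CPM in knock-in hearts and 5.74 ± 0.70 CPM in wild-type hearts (SD, n = 3 each). The log2 difference, knock-in minus wild-type, was 1.43 ± 0.17 (SE, from edgeR's quasi-likelihood fit), a 2.69-fold difference and the 30th largest of 13066 tested genes. In that fit 881 genes (6.74%) were higher in knock-in hearts at a Benjamini-Hochberg adjusted p under 0.05, the contrast from which Cenpf was taken. A bulk heart does not tell fewer expressing cells from less RNA per cell. Leaving out any 1 heart gave log2 differences of Cenpf from 1.33 to 1.52.

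**Figure D1:**
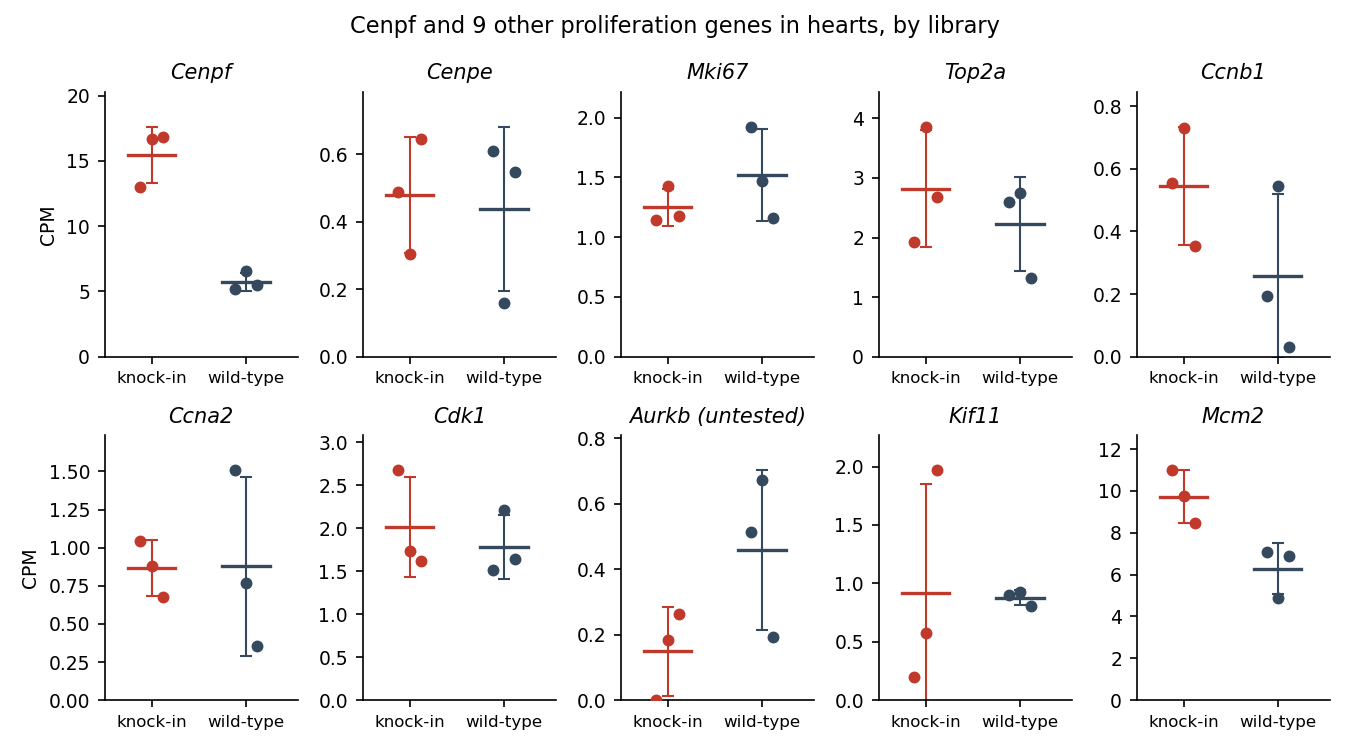
Level of each of the 10 genes in CPM (vertical axis, scaled separately for each gene), with knock-in hearts on the left and wild-type hearts on the right; points are libraries, horizontal lines are means and bars are SD (n = 3, cut off at 0). Cenpf and Mcm2 are the genes whose groups do not overlap.

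The difference at Cenpf shrank along the transcript. Over exons 1 to 6 (987 bases), a count of 0 allows up to 3 counts per library, or 0.00304 counts per base, an upper limit for counting error only. Exons 7 to 11 (717 bases) held 38, 57 and 58 counts in the knock-in libraries and 4, 5 and 8 counts in the wild-type libraries. That is 0.0530 to 0.0809 counts per base in knock-in hearts and 0.00558 to 0.0112 counts per base in wild-type hearts. All of these values lie above the limit for exons 1 to 6.

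Mean CPM over exons 7 to 11 was 8.58 times as high in knock-in hearts, a log2 ratio of 3.10. Exon 12 (3428 bases) held 103, 118 and 142 counts in the knock-in libraries and 13, 38 and 29 in the wild-type libraries, a ratio of mean CPM of 4.34. In exon 13 (2832 bases) the counts were 120, 172 and 172 in the knock-in libraries and 42, 51 and 63 in the wild-type libraries, a ratio of 2.84. The groups did not overlap in any of these segments, which are parts of a gene chosen for its difference between these libraries.

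Towards the 3′ end the ratio was below 2. Exons 14 to 17 held 90, 135 and 125 counts in the knock-in libraries and 70, 74 and 46 in the wild-type libraries, a ratio of mean CPM of 1.76. Exon 18, which holds the 3′ end of the coding sequence and the 3′ UTR, had 47, 65 and 73 counts in the knock-in libraries and 33, 36 and 25 in the wild-type libraries, a ratio of 1.88. Of the 12 exons with counts, all had a higher mean CPM in knock-in hearts. In 11 of those 12 exons the groups did not overlap in CPM, exon 15 being the exception. These exons belong to the same gene, chosen for its difference between these libraries, so their counts describe Cenpf and are not independent tests. The share of such exons in other genes is not given here. Exons 7 to 11 took 9.55%, 10.4% and 10.2% of the Cenpf exon counts in the knock-in libraries, against 2.47%, 2.45% and 4.68% in the wild-type libraries.

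**Figure D2:**
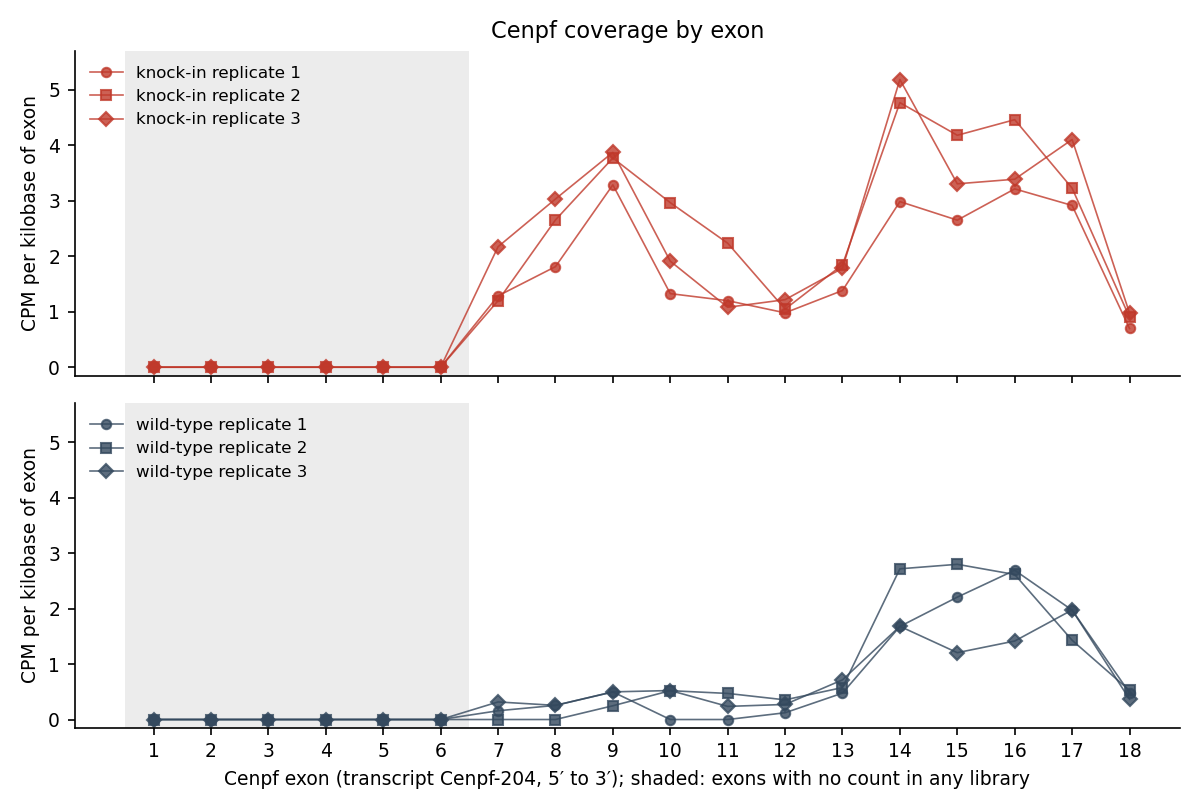
Cenpf coverage in CPM per kilobase of exon (vertical axis) for exons 1 to 18 in transcript order (horizontal axis), with the 3 knock-in libraries above and the 3 wild-type libraries below on the same scale. Exons 1 to 6, shaded, have 0 counts in every library, and the wild-type libraries stay low until exon 13.

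Bins of other annotated Cenpf transcripts, retained introns included, added 4303 bases outside the exons of Cenpf-204. They held 1 count in all, in knock-in replicate 3. The bins cover annotated exons, so a first exon that is not annotated would not appear in these counts.

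A gene whose first 6 exons or more are without counts was rare in these hearts. The cutoff of 6 equals the number of such exons in Cenpf, so the share below describes its place and measures no probability. Among 4340 tested genes with at least 10 exons and at least 1000 counts, 377 (8.69%) had at least 1 leading exon at 0. Only 8 of the 4340 (0.184%) had 6 or more: Cenpf, Mia2, Nrbp2, Triobp, Loxl2, Camk2a, Mov10l1 and Abca12, the last 7 named for this pattern after their counts were seen. In mouse, Mov10l1 is known for a short heart transcript that starts inside the gene, and Camk2a for a short muscle product, alphaKAP, made from an internal start. Mov10l1 had 14 of its 27 exons at 0 and Camk2a 12 of its 19. Of the 7 other genes, Camk2a alone passed the adjusted threshold, with a log2 difference of 0.50 and an adjusted p of 0.0251 by edgeR. Among the other proliferation genes, Mki67 had its first 5 exons at 0, on 264 counts in all, and Cenpe its first 3, on 88 counts in all. Those depths do not separate an unused exon from a sparsely counted one.

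Coverage of long transcripts as a class also differed between the groups, in the same sense as that of Cenpf. Transcripts of at least 4000 bases and 1000 counts, 1810 in number, were divided into 3 equal parts, with each exon placed by its middle. Whole exons were placed, so the parts of Cenpf were unequal: exons 1 to 12, exon 13, and exons 14 to 18. The median log2 ratio of knock-in over wild-type mean CPM was 0.63 in the first part, 0.31 in the middle part and −0.14 in the last part. For Cenpf the same ratios were 2.33, 1.50 and 0.84. In the first part 2 of the 1810 transcripts (0.110%) had a larger ratio than Cenpf, against 19 (1.05%) in the middle part and 16 (0.884%) in the last part. Cenpf was chosen for its difference between these libraries, so these shares describe its place and measure no probability.

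By library, the median log2 ratio of last-part to first-part counts over long transcripts was −0.30, −0.53 and −0.38 in the knock-in libraries and 0.65, 0.39 and 0.17 in the wild-type libraries. For Cenpf it was −0.04, 0.19 and −0.01 in the knock-in libraries and 2.56, 1.34 and 0.93 in the wild-type libraries. Both the class and Cenpf therefore had more 3′-weighted coverage in every wild-type library than in any knock-in library. In a setting added after seeing the data, whole bins were taken from the 3′ end until 2000 exonic bases were reached. These are called the 3′-most 2000 exonic bases here, though a long bin can reach further. Over them Cenpf had a log2 difference of 0.89. With per-library offsets for exonic length and GC content the log2 difference was 1.13. Among the longest 20% of tested genes (at least 7290 exonic bases), to which Cenpf belongs, 387 of 2614 (14.8%) were higher in knock-in hearts by the adjusted threshold and 50 were lower, with a median log2 difference of 0.20. The contribution of the coverage difference to the whole-gene value of Cenpf was not tested.

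**Figure D3:**
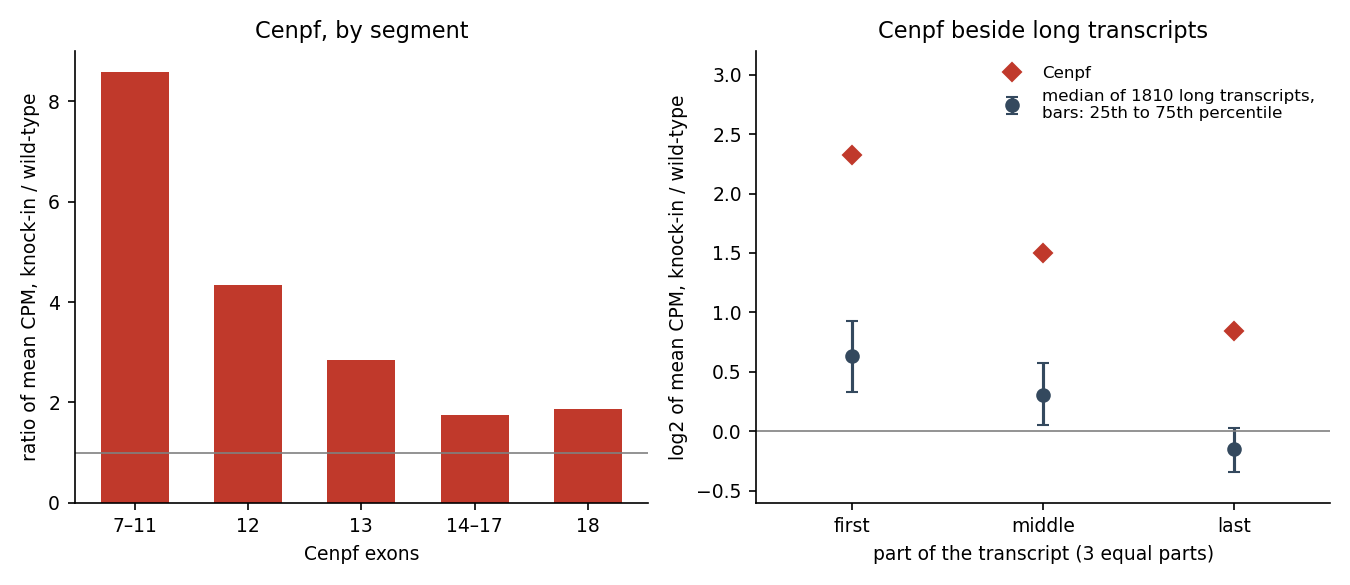
Left, ratio of mean CPM in knock-in over wild-type hearts (vertical axis, bars from 0, line at 1) for consecutive Cenpf exons, which is 8.58 over exons 7 to 11 and 1.76 to 1.88 at the 3′ end. Right, log2 of the same kind of ratio by part of the transcript, 3 equal parts with whole exons placed by their middle. Diamonds show Cenpf, whose parts are unequal, and circles the median of 1810 long transcripts (bars from the 25th to the 75th percentile). Cenpf, chosen for its difference in this contrast, lies above the bars in every part.

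None of the 9 other proliferation genes passed the adjusted threshold in the edgeR test. Of these, 8 were tested and Aurkb did not pass the filter on low counts. Among all 13066 tested genes, 1415 (10.8%) passed in either direction, and 303 of 5333 (5.68%) passed among genes with a mean of at most 8.01 CPM, the level of the highest of the 9. At an unadjusted p under 0.05, 1 of the 8 passed, Mcm2. With limma-voom 0 of the 8 passed, and with DESeq2 Mcm2 alone passed. The log2 difference was above 0 for 6 of the 8 and below 0 for 2, with a median of 0.15 against −0.00434 over all tested genes. Of these 8, 6 changed sign in at least 1 alternative setting, all but Ccnb1 and Mcm2.

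Cenpe is the kinesin that carries chromosomes to the middle of the spindle, at the same kinetochore layer as Cenpf (chr3:135212537-135273611, plus strand). It had 15, 10 and 22 counts in the knock-in libraries and 19, 5 and 17 counts in the wild-type libraries. The groups overlapped in part, with knock-in replicate 3 the highest and wild-type replicate 2 the lowest, and the log2 difference was 0.13 ± 0.54 (SE), with a 95% interval from −1.03 to 1.29 and an adjusted p of 0.901 by edgeR.

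Kif11, the motor that pushes spindle poles apart (chr19:37376403-37421859, plus strand), had 6, 19 and 67 counts in the knock-in libraries and 28, 29 and 25 counts in the wild-type libraries. Knock-in replicate 3 was the highest of the 6 and knock-in replicate 1 the lowest, while the wild-type libraries were close together. The log2 difference was 0.07 ± 0.59 (SE), with an adjusted p of 0.949 by edgeR. Aurkb, the kinase of the chromosomal passenger complex that corrects spindle attachments (chr11:69045647-69051664, plus strand), had 0, 6 and 9 counts in the knock-in libraries and 16, 21 and 6 counts in the wild-type libraries. Its groups overlapped through wild-type replicate 3, and it was too low to be tested.

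Top2a untangles sister chromosomes before they separate (chr11:98992943-99024189, minus strand; its identifier in the table is joined with that of a small RNA gene). It had 59, 127 and 91 counts in the knock-in libraries and 81, 86 and 41 counts in the wild-type libraries. The groups overlapped, and the log2 difference was 0.35 ± 0.33 (SE), with an adjusted p of 0.527 by edgeR. Mki67, the Ki-67 protein that coats mitotic chromosomes and marks cycling cells (chr7:135689784-135716361, minus strand), had 35, 47 and 40 counts in the knock-in libraries and 60, 46 and 36 counts in the wild-type libraries. Its groups overlapped too, and its log2 difference was −0.28 ± 0.31 (SE), with a 95% interval from −0.95 to 0.39 and an adjusted p of 0.593 by edgeR. The interval of Mki67 thus ends at 1.31-fold higher in knock-in hearts.

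Cdk1, the kinase that drives entry into mitosis (chr10:69336635-69352938, minus strand), had 82, 57 and 55 counts in the knock-in libraries and 47, 69 and 51 counts in the wild-type libraries. The groups overlapped, with a log2 difference of 0.17 ± 0.29 (SE) and an adjusted p of 0.755 by edgeR. Its partner Ccna2, the cyclin of S phase and early mitosis (chr3:36564865-36572150, minus strand), had 32, 29 and 23 counts in the knock-in libraries and 47, 24 and 11 counts in the wild-type libraries. The wild-type libraries spanned the knock-in ones, with a log2 difference of −0.02 ± 0.47 (SE) and an adjusted p of 0.985 by edgeR.

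Ccnb1, the cyclin that activates Cdk1 at the entry into mitosis (chr13:100778650-100786570, minus strand), had 17, 24 and 12 counts in the knock-in libraries and 6, 17 and 1 counts in the wild-type libraries. Wild-type replicate 2 lay within the knock-in range and the other wild-type libraries below it. The log2 difference of 1.08 ± 0.67 (SE) had the widest interval of the 8, from −0.37 to 2.52, and an adjusted p of 0.321 by edgeR.

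Mcm2, a subunit of the helicase that opens DNA for replication (ENSMUSG00000002870, chr6:88883474-88898780, minus strand), came nearest to the threshold. It had 337, 320 and 288 counts in the knock-in libraries and 220, 153 and 215 counts in the wild-type libraries. Every knock-in library of Mcm2 was above every wild-type library. The groups did not overlap, in one direction or the other, for 4005 of the 13066 tested genes (30.7%). Mcm2 averaged 9.73 ± 1.27 CPM in knock-in hearts and 6.29 ± 1.21 CPM in wild-type hearts (SD, n = 3 each). The log2 difference was 0.63 ± 0.19 (SE), with a 95% interval from 0.22 to 1.04, and an adjusted p of 0.0527 by edgeR, just outside the threshold. In 6 of 20 alternative settings Mcm2 passed, among them DESeq2 on the unfiltered table and the setting without wild-type replicate 3, and over all settings its adjusted p ran from 0.0186 to 0.832. In the middle part of the transcript Mcm2 had 159, 143 and 138 counts in the knock-in libraries and 86, 77 and 73 in the wild-type libraries, without overlap. In its first part the counts were 91, 84 and 82 in the knock-in libraries and 71, 20 and 88 in the wild-type libraries, and the groups overlapped through wild-type replicate 3. In the last part they were 87, 92 and 68 in the knock-in libraries and 63, 55 and 54 in the wild-type libraries, with knock-in replicate 3 close to wild-type replicate 1.

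**Figure D4:**
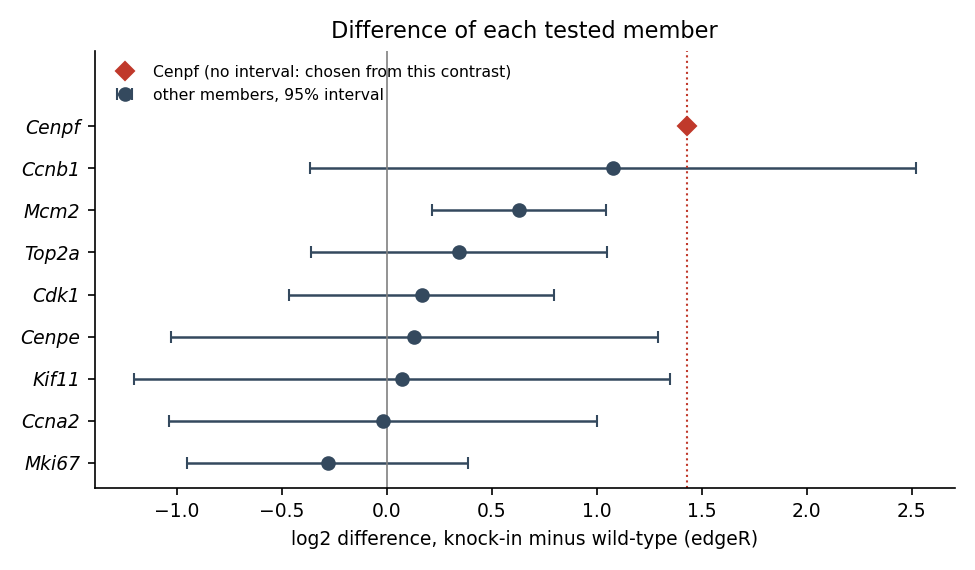
Log2 difference, knock-in minus wild-type (horizontal axis), of the 8 tested genes besides Cenpf with 95% intervals from edgeR, and of Cenpf (diamond, dotted line at 1.43) as a value with no interval. Of the 8 intervals, that of Ccnb1 is the widest and that of Mcm2 alone lies wholly above 0.

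Summed over the 9 genes other than Cenpf, the level was 19.0, 19.4 and 17.8 CPM in the knock-in libraries and 16.8, 14.4 and 13.0 CPM in the wild-type libraries. The groups did not overlap in that sum. Without Mcm2 the sum over 8 genes was 8.03, 9.71 and 9.38 CPM in the knock-in libraries and 9.76, 9.50 and 6.04 CPM in the wild-type libraries, and the groups overlapped.

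Levels of genes can be set side by side per kilobase of exon, though only roughly. A read seems to count once in every bin it touches, which raises genes of many short bins. Over all annotated exons Mcm2 had 34 bins in 6956 bases and Cenpf 31 in 15433. The values per kilobase use the exons of 1 transcript per gene, 3371 bases for Mcm2 and 11130 for Cenpf. On this scale Mcm2 was the highest of the 10. It had 2.88 ± 0.38 CPM per kilobase in knock-in hearts and 1.86 ± 0.36 in wild-type hearts (SD, n = 3 each). Cenpf followed in knock-in hearts with 1.39 ± 0.19 CPM per kilobase, against 0.516 ± 0.062 in wild-type hearts. Cdk1 stood at 0.696 ± 0.201 CPM per kilobase in knock-in hearts and 0.611 ± 0.116 in wild-type hearts. Top2a stood at 0.533 ± 0.182 CPM per kilobase in knock-in hearts and 0.422 ± 0.147 in wild-type hearts. In wild-type hearts Cenpf thus lay between Cdk1 and Top2a and within 1 SD of each of their means, while in knock-in hearts it was separated by more than the SDs from Mcm2 above it and Cdk1 below it. The 6 remaining genes ranged from 0.0607 (Cenpe) to 0.293 (Ccna2) CPM per kilobase in knock-in hearts and from 0.0555 (Cenpe) to 0.296 (Ccna2) in wild-type hearts, with neighbours in each order closer than the sum of their SDs.

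Likeness to Cenpf was measured as Pearson r of log2 CPM over the 6 libraries, which takes in the split into 2 groups by which Cenpf was selected. Of 10790 named genes with a mean of at least 1 CPM, 766 had an r above 0.9 with Cenpf. The 8 most like it were Trpc4ap, Mlxip, Myo5b, Wiz, Rhobtb1, Ehd4, Arid5a and Rbm24, with r from 0.992 to 0.996. These values describe genes that differ between the same libraries in the same sense, and nothing further is read from them.

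The annotated start regions of most of these genes hold the same short element. Promoters of mitotic genes often carry the cell cycle genes homology region, TTTGAA, bound by repressor complexes in resting cells, and CCAAT boxes. Both were searched on both strands in RefSeq promoter windows of GRCm38.p6, from 250 bases before to 50 bases after each start, and neither motif contains the other. Windows existed for 8 of the 10 genes. TTTGAA or its reverse complement was found in 6 of the 8, in Cenpf, Mki67, Top2a, Cdk1, Kif11 and Mcm2, and in 17.9% of all 32851 windows. Ccnb1 and Cenpe had windows without it, and Ccna2 and Aurkb had no window. CCAAT or its reverse complement was found in 8 of the 8 and in 37.4% of all windows. The 30 bases around the element nearest the 3′ end of each window are printed in the direction of each gene, with the match in capitals. They show that some genes that did not pass the threshold hold it as well as Cenpf. Counted from the start, its first base is at 3 in Cenpf, and from −98 in Mki67 to −15 in Cdk1 among the others.

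Cenpf: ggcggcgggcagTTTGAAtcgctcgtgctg

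Mki67: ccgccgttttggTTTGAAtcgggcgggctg

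Top2a: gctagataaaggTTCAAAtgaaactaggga

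Cdk1: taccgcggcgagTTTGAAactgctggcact

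Kif11: tcgtctccatttTTCAAAattgaggcgcgg

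Mcm2: agggctcagcctTTTGAAagctgtgggcgg

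The printed bases lie at chr1:189688067-189688096 for Cenpf, chr7:135716460-135716489 for Mki67, chr11:99024195-99024224 for Top2a, chr10:69352910-69352939 for Cdk1 and chr6:88898833-88898862 for Mcm2, all on the minus strand, and at chr19:37376351-37376380 on the plus strand for Kif11. For Cenpf this window is that of exon 1, which held 0 counts in all 6 libraries. A match is a run of letters and not a measured binding site.

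Genes beyond the 10 were described from 10 lists of 253 genes, called the cell cycle lists here, of which 211 were tested. Among these are lists of Cenpf partners and of centrosome and microtubule organisers, which also hold genes of other roles. The partner list gave 2 higher and 1 lower of the calls below, and the centrosome list 1 higher and 2 lower. In the edgeR test 11 of the 211 (5.21%) were higher in knock-in hearts and 9 (4.27%) were lower, against 6.74% and 4.09% of all tested genes. The median log2 difference over the 211 was 0.02. The count of 20 calls changed with each heart left out. It was 3 and 9 without knock-in replicates 2 and 3, and 5 and 6 without wild-type replicates 1 and 2. With either knock-in replicate 1 or wild-type replicate 3 left out it was 27. Over the whole table the 1415 calls became 164 and 432, 208 and 260, and 2064 and 2461, in the same order. With upper-quartile scaling the split of list genes was 6 higher and 10 lower, and without scaling factors 7 higher and 9 lower. Over the whole table, upper-quartile scaling gave 594 higher and 734 lower, and no scaling factors 552 higher and 700 lower, against 881 and 534.

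At the kinetochore, where Cenpf acts, 24 genes were tested and 2 passed. Zwint, which ties the Rod-Zw10-Zwilch complex to the kinetochore, averaged 69.7 ± 1.5 CPM in knock-in hearts and 43.7 ± 1.8 CPM in wild-type hearts (SD, n = 3 each), with a log2 difference of 0.67 and an adjusted p of 0.00547 by edgeR. Spc24, a subunit of the Ndc80 complex that grips microtubules, averaged 3.55 ± 1.17 CPM in knock-in hearts and 6.93 ± 0.70 CPM in wild-type hearts, with a log2 difference of −0.97 and an adjusted p of 0.0234 by edgeR. Of 20 alternatives, Zwint missed the threshold in 2 and Spc24 in 7.

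Among 16 tested mitotic kinases, cyclins and their regulators, Wee1 alone passed. Wee1, which holds Cdk1 inactive before mitosis, averaged 16.2 ± 0.6 CPM in knock-in hearts and 7.24 ± 1.71 CPM in wild-type hearts, a 2.24-fold difference (log2 1.16, adjusted p 0.00547 by edgeR). Of 23 spindle and cytokinesis genes, 1 passed, the microtubule polymerase Ckap5, at log2 0.48 (adjusted p 0.0395 by edgeR). Of 20 chromosome structure genes, 1 passed, Tuba1b, which is an alpha-tubulin and no chromosome protein, at log2 0.45 (adjusted p 0.0254 by edgeR). Of 17 subunits of the anaphase-promoting complex and its helpers, 1 passed, Anapc1, at log2 0.47 (adjusted p 0.0383 by edgeR). In their highest bin alone, Ckap5 stood at −0.33 and Anapc1 at −0.11, on the other side of 0. Ckap5 missed the threshold in 10 alternatives, Anapc1 in 9 and Tuba1b in 6, while Wee1 passed in all 20.

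Of 32 replication genes, 2 passed. Pola1, the catalytic subunit of DNA polymerase alpha, was higher in knock-in hearts at log2 0.75 (adjusted p 0.0355 by edgeR), and Gmnn, geminin, which blocks a second round of licensing, was lower at log2 −0.53 (adjusted p 0.0251 by edgeR). Of 27 genes of the G1 cyclins, E2F and RB families, 2 passed and both were higher. Ccnd2, the D-type cyclin that starts the G1 phase, averaged 97.3 ± 3.7 CPM in knock-in hearts and 56.2 ± 6.4 CPM in wild-type hearts (SD, n = 3 each), a 1.73-fold difference (adjusted p 0.00483 by edgeR). Tfdp2, the dimer partner of E2F factors, was 1.53-fold higher (adjusted p 0.0151 by edgeR). Pola1 missed the threshold in 10 alternatives, Gmnn in 7 and Tfdp2 in 4, while Ccnd2 passed in all 19 that gave it a value. Over the last 1000 exonic bases Pola1 stood at 0.35 and Gmnn at −0.31.

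Of 19 tested cell cycle inhibitors, 4 passed and all 4 were lower in knock-in hearts. That is 21.1% lower, against 4.09% lower of all tested genes. Under the 3 other scalings 4 or 5 of the list were lower and 0 were higher. The CDK inhibitor Cdkn1a (p21) averaged 14.3 ± 3.2 CPM in knock-in hearts and 25.4 ± 6.8 CPM in wild-type hearts (SD, n = 3 each), a log2 difference of −0.83 (adjusted p 0.0287 by edgeR). Cdkn1c (p57) averaged 9.75 ± 0.74 CPM in knock-in hearts and 19.2 ± 3.9 CPM in wild-type hearts, a log2 difference of −0.97 (adjusted p 0.00739 by edgeR). Ccng1, a cyclin G that p53 induces, averaged 406 ± 28 CPM in knock-in hearts and 646 ± 94 CPM in wild-type hearts, a log2 difference of −0.67 (adjusted p 0.00771 by edgeR). Cdkn3, a phosphatase of CDKs that is itself high in dividing cells, averaged 0.386 ± 0.182 CPM in knock-in hearts and 1.06 ± 0.23 CPM in wild-type hearts (log2 −1.46, adjusted p 0.0491 by edgeR). Of the alternatives, Cdkn3 missed the threshold in 10, Cdkn1a in 7, Cdkn1c in 3 and Ccng1 in 1. Cdkn1c stood at −0.34 over its last 1000 exonic bases (adjusted p 0.235 by edgeR) and at −0.40 in its highest bin (adjusted p 0.278 by edgeR). Summed over the list, the inhibitors ran from 584 to 628 CPM in knock-in hearts and from 794 to 944 CPM in wild-type hearts, without overlap, and their median log2 difference was −0.42. Ccng1 alone made up most of that sum. Without it the 20 remaining genes summed to 203, 199 and 190.2 CPM in the knock-in libraries and 247, 244 and 209.9 CPM in the wild-type libraries, also without overlap. Sums of the kinetochore, spindle, chromosome structure, G1 and Cenpf partner lists did not overlap either, but were higher in knock-in hearts. How often sums of other gene lists do not overlap is not given here. Kinetochore genes summed to 207 to 217 CPM in knock-in hearts and 176 to 193 CPM in wild-type hearts. Spindle and cytokinesis genes summed to 82.0 to 97.2 CPM and 62.6 to 75.5 CPM in the same order. Sums of the mitotic kinase, replication, anaphase-promoting complex and centrosome lists overlapped.

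Proteins that bind Cenpf, modify it or work beside it were described as a list of 16 measured genes. The dynein regulators Nde1, Ndel1 and Pafah1b1, through which Cenpf meets the dynein motor, had log2 differences of 0.21, 0.06 and 0.42, none past the threshold. The adjusted p of Pafah1b1 was 0.0616 by edgeR. Rhot1, the Miro protein through which Cenpf binds mitochondria, stood at 0.32 (adjusted p 0.115 by edgeR). Of the mitochondrial motor adaptors, Trak1 averaged 434 ± 38 CPM in knock-in hearts and 308 ± 9 CPM in wild-type hearts, a log2 difference of 0.49 (adjusted p 0.0147 by edgeR), and stood at −0.10 over its 3′-most 2000 exonic bases (adjusted p 0.673 by edgeR). Trak2 averaged 203 ± 29 CPM in knock-in hearts and 143 ± 25 CPM in wild-type hearts, a log2 difference of 0.51 (adjusted p 0.0397 by edgeR). Over its 3′-most 2000 exonic bases Trak2 stood at 0.02 (adjusted p 0.950 by edgeR) and in its highest bin at 0.03 (adjusted p 0.928 by edgeR). Trak1 missed the threshold in 6 alternatives and Trak2 in 8.

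Atf4, a stress transcription factor that binds Cenpf, averaged 28.0 ± 4.1 CPM in knock-in hearts and 39.4 ± 2.9 CPM in wild-type hearts, a log2 difference of −0.50 (adjusted p 0.0358 by edgeR), and missed the threshold in 8 alternatives, with −0.13 over its last 1000 exonic bases. The vesicle fusion proteins Vamp2 and Stx4a stood at −0.02 and 0.02, the nucleoporin Nup133 at 0.07, the dynein chains Dynlt3 and Dync1h1 at 0.23 each, and the prenylation enzymes Fnta, Rce1 and Icmt at −0.14, −0.23 and 0.18, none past the threshold. Snap25 was at 0 in all 6 libraries. Of 18 genes that organise microtubules at centrosomes and the cardiomyocyte nuclear envelope, Akap6, the scaffold of the cardiomyocyte nuclear envelope, was higher at log2 0.91 (adjusted p 0.0112 by edgeR). Over its 3′-most 2000 exonic bases Akap6 stood at 0.02 (adjusted p 0.957 by edgeR), 1 of 4 alternatives in which it missed the threshold. Cep250, which links centrioles, was lower at log2 −0.76, and Syne2, a nesprin that ties the nucleus to the cytoskeleton, at −0.56, with adjusted p of 0.0328 and 0.0473 by edgeR. Cep250 missed the threshold in 7 alternatives and Syne2 in 8.

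**Figure D5:**
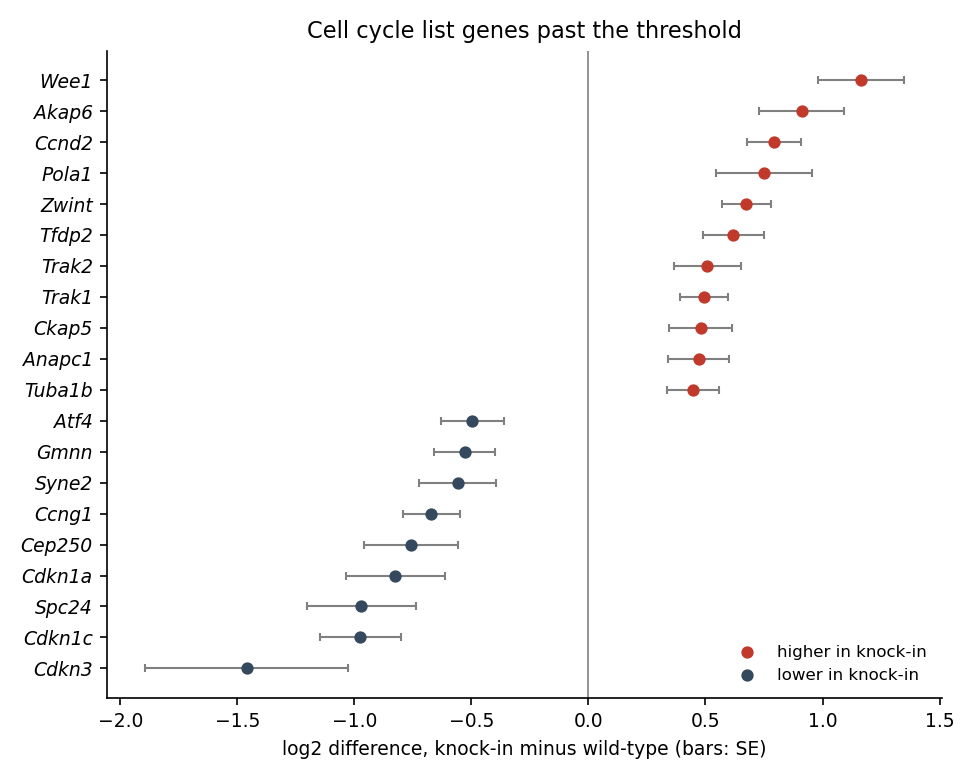
Log2 difference, knock-in minus wild-type (horizontal axis), with SE as bars, of the 20 cell cycle list genes past the adjusted threshold of 0.05, higher in knock-in hearts on the right and lower on the left. Wee1 stands farthest right at 1.16 and Cdkn3 farthest left at −1.46. Genes of the Cenpf partner and centrosome lists are among the 20.

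The libraries and the tissue set the frame for these values. Totals were 31989883 to 34016586 counts in the knock-in libraries and 30329004 to 30625093 counts in the wild-type libraries. Txnip, the targeted gene, stood at 363, 751 and 670 CPM in the knock-in libraries and 887, 939 and 886 CPM in the wild-type libraries (log2 −0.60 ± 0.20 SE, adjusted p 0.0698 by edgeR), and counts do not read the changed motif. Cardiomyocyte markers, Myh6 and Tnnt2 among them, summed to 83451 to 89976 CPM in knock-in hearts and 73776 to 78931 CPM in wild-type hearts, with 0 of 6 tested markers past the threshold. Cell types that can divide in adult heart did not carry higher markers in knock-in hearts by the adjusted threshold, apart from 1 pericyte gene, Abcc9, which cardiac and smooth muscle cells also express. In each of the endothelial, fibroblast, macrophage and smooth muscle lists more markers were lower than higher by that threshold. Over all tested genes 6.74% were higher and 4.09% lower. Endothelial markers (0 higher and 2 lower of 10) summed to 484 to 671 CPM in knock-in hearts and 604 to 889 CPM in wild-type hearts. Fibroblast markers (0 higher and 1 lower of 9) summed to 752 to 899 CPM in knock-in hearts and 804 to 877 CPM in wild-type hearts. Macrophage markers (0 higher and 2 lower of 9) summed to 224 to 232 CPM in knock-in hearts and 264 to 303 CPM in wild-type hearts. Smooth muscle and pericyte markers (1 higher and 3 lower of 9) summed to 655 to 1015 CPM in knock-in hearts and 708 to 781 CPM in wild-type hearts. Abcc9 alone held 449 CPM of the mean sum of 855 CPM in knock-in hearts and 210 of 741 CPM in wild-type hearts. The 3 lower genes were Acta2, Tagln and Cnn1. Lymphocyte markers (2 of 10 tested, 0 called) summed to 3.53 to 4.59 CPM in knock-in hearts and 3.54 to 5.41 CPM in wild-type hearts. Of the red cell precursor markers 0 of 4 tested passed, and Hemgn and Ermap were at 0 in all libraries. The part of these cell types in the Cenpf value was not tested.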

How the data were processed

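The authors deposited a table of whole-number counts of reads per exon bin for 6 heart libraries; per the labels' protocols RNA was isolated with the RNeasy Mini Kit and libraries made with the NEBNext Ultra II kit. The submitters' processing notes name GRCm38.p6, STAR, featureCounts, Subread 1.5.2 and DESeq2, with no settings in the sources used here. Judging by very short bins that hold many counts, a read counted once in every bin it touched, so a gene's sum is not a number of reads. The 425461 bins were summed over 48005 identifiers, of which 1194 join overlapping genes, and named and placed on exons with GENCODE annotation of GRCm38.

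After filterByExpr and TMM scaling, knock-in and wild-type libraries were compared by the quasi-likelihood test of edgeR 4.0.16 (robust glmQLFit, then glmQLFTest, in R 4.3.3), with all 6 libraries, no covariates, Benjamini-Hochberg adjustment over 13066 genes and a threshold of 0.05. Log2 differences are knock-in minus wild-type. Exon and part ratios are ratios of mean CPM, parts with 0.5 counts added. Pearson r used log2 CPM with a prior count of 2. The series text states 3 hearts per group, and p-values measure the spread between those hearts. Alternatives were other scalings, DESeq2 1.42.0, limma-voom (limma 3.58.1), other filters, other sets of bins, length and GC offsets, and each heart left out; the steps were checked on simulated data.

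The 10 genes and all gene lists were chosen with earlier results of these data known. Named were the 10 genes, the genes of each list past the threshold (up to 4 by smallest p), every measured Cenpf partner, the 8 genes most like Cenpf and Txnip; of the marker lists some are given by counts only.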

Additional observations from a re-analysis of the deposited data

How the results depend on the processing

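The Cenpf log2 difference stayed above 0 in 19 alternatives. It was 1.64 in its highest bin alone, 1.13 with length and GC offsets and 0.89 over the 3′-most 2000 exonic bases, the last added after seeing the data; over the last 1000 bases Cenpf had no bin. Over exons 7 to 11 the log2 ratio ran from 2.90 to 3.44 with a heart left out. Leaving out hearts gave 0 to 1 other proliferation genes past the threshold. Mcm2 was the 1 gene that passed with DESeq2, with no filter on low counts, with bins of at least 50 bases, with length and GC offsets, over the 3′-most 2000 bases and without wild-type replicate 3. Of the 8 tested, 6 changed sign in at least 1 alternative, all but Ccnb1 and Mcm2, and not only where fewer bins were counted: with limma-voom Ccna2 stood at 0.18 and Kif11 at −0.46, and with length and GC offsets Cenpe stood at −0.07 and Kif11 at −0.09.

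Genes called over the whole table fell to 277 over the last 1000 exonic bases, 607 in the highest bin and 529 over the 3′-most 2000 bases, and the 20 cell cycle list genes to 6, 9 and 6. Many calls changed when a heart was left out. Without knock-in replicates 1, 2 and 3 the whole-table counts were 2064, 164 and 432, and those of the cell cycle lists 27, 3 and 9. Without wild-type replicates 1, 2 and 3 they were 208, 260 and 2461, and 5, 6 and 27. Wee1 passed in all 20 alternatives and Ccnd2 in the 19 that gave it a value, while Cdkn3, Ckap5 and Pola1 were lost in 10 and Cdkn1a in 7.

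Among genes past the threshold over the whole gene or in the alternative, reversals were as follows. Over the last 1000 exonic bases Ckap5 stood at −0.18 and Trak1 at −0.20; over the 3′-most 2000 bases Anapc1 stood at −0.12 and Trak1 at −0.10; in the highest bin Ckap5 stood at −0.33 and Anapc1 at −0.11. Txnip stood at 4.58 over the last 1000 bases (adjusted p 0.00571 by edgeR). The cause was not tested.

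No paired analysis was possible because the labels give no replicate numbers, and the numbers used here follow accession order. Low counts limit the 9 other genes: the intervals of Ccnb1, Kif11, Cenpe and Ccna2 span more than 2 log2 units.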
